A study of Mus musculus with 4 samples.

Results

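Ubiquitin on histone H2B is written and erased by a small set of enzymes, and 10 of their genes were compared here between control and Mps1sKO testes. They were taken by name from the 55820 rows of the deposited table. The ligase is encoded by *Rnf20* and *Rnf40*, its ubiquitin-conjugating (E2) enzymes by *Ube2a* and *Ube2b*, its cofactors by *Wac*, *Paf1* and *Rtf1*, and the deubiquitinases by *Usp22*, *Usp44* and *Usp7*. All 10 were found, each on 1 row, and all 10 passed the filter on low counts that kept 20561 rows for testing.

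The libraries were made from RNA of whole testes of C57BL/6J males at postnatal day 10, 2 from control mice and 2 from Mps1sKO mice. In Mps1sKO mice, Cre recombinase under *Stra8* deletes floxed *Mps1* (*Ttk* in the table) in germ cells from early spermatogonia onward, so somatic cells of the testis are not targeted. The labels call the other group only control, and its alleles are not given in the sources used here. The counts cover transcripts only, and neither the proteins nor the ubiquitin mark itself.

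A single ubiquitin on a lysine near the C-terminal end of H2B is placed on the bodies of transcribed genes. The RNF20-RNF40 ligase works there with UBE2A or UBE2B, is brought to RNA polymerase II through WAC and the PAF1 complex, and stimulates methylation of histone H3 by DOT1L and the SET1 complexes. In the testis this mark is known for its part in meiotic prophase, where it helps to open chromatin around DNA breaks, and male mice without *Ube2b* are infertile.

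Total counts lay between 23311689 and 28607746, and mitochondrial genes took 2.52% to 3.14% of them. Levels are given as CPM, the count of a row scaled to the library's total with TMM factors. Genotypes were compared in edgeR by its quasi-likelihood F test, which is two-sided, and adjusted p-values are those of Benjamini and Hochberg over every tested row. A log2 fold change above 0 means a higher level in Mps1sKO testes. The series calls its replicates biological without saying whether each library is 1 mouse, so p-values measure the spread between these libraries. An exact permutation test of 2 against 2 cannot go below p = 0.333, so p-values come only from models fitted across all rows. *Ttk* was at 27.8 and 32.6 CPM in control and at 13.0 and 12.2 in Mps1sKO testes, lower in both libraries labelled as knockout (log2 fold change −1.26, adjusted p = 0.0461 from edgeR). That p rose above 0.05 in 4 alternative fits.

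The coding sequences of *Ube2a* and *Ube2b* are those of paralogues, and they are shown because the levels of these genes are compared below and a read that fits both genes would be lost or misplaced. Over 456 coding bases without the stop codon they differed at 102, an identity of 77.6%, and the longest identical run was 17 bases. Below are the 150 bases, the length of 1 read, in which they are most alike (coding bases 223 to 372 of transcripts from GENCODE M21, GRCm38, 5′ to 3′), with the 25 bases that differ in capitals. The stretch lies in 3 coding exons of each gene, within chrX:36881728-36883053 on the plus strand for *Ube2a* and within chr11:51986769-51991412 on the minus strand for *Ube2b*.
Ube2a: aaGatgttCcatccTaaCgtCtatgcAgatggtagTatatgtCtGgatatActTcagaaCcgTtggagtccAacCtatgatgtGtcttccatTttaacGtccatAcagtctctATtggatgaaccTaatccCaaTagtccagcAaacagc
Ube2b: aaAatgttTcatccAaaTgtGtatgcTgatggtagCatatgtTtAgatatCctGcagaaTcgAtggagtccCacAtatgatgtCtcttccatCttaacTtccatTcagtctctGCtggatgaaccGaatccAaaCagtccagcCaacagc
Of the 25 capitals, 23 fall on the last base of a codon. Even in this stretch a read of full length met 25 differences, and no other annotated transcript matched either gene over 100 bases or more at 95% identity.

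The levels of the 10 genes in these testes spanned a wide range. On the deposited FPKM scale, which divides by gene length and so allows genes to be compared, *Ube2b* was the highest, at 65.5 and 67.9 in control and 62.7 and 67.4 in Mps1sKO libraries. Its paralogue *Ube2a* stood at 8.64 and 6.82 in control and 8.64 and 10.1 in Mps1sKO libraries. The FPKM of *Ube2b* was thus 7.58 and 9.95 times that of *Ube2a* in control and 7.26 and 6.66 times in Mps1sKO libraries. Both Mps1sKO ratios lay below both control ratios, the nearest by 7.26 against 7.58, and this difference was not tested. For single genes in CPM, the genotypes did not overlap, in either direction, for 41.4% of all tested rows.

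Between the E2 paralogues came the other members except *Usp44*. The mean FPKM over the 4 libraries was 47.2 for *Usp22*, 40.9 for *Usp7*, 31.3 for *Paf1*, 29.5 for *Rnf20*, 27.0 for *Wac*, 21.2 for *Rnf40* and 20.2 for *Rtf1*. *Paf1* and *Rnf20* were not separated beyond the spread of the libraries, nor were *Rnf20* and *Wac* or *Rnf40* and *Rtf1*. Each other pair of neighbours in this order had library ranges that did not overlap. The order also depends on the gene length used, which the spread of the libraries does not cover. The length counts all exonic bases, 7766 for *Usp7* and 4886 for *Usp22*, while their longest coding transcripts have 4745 and 4434. *Usp44* was the lowest, between 0.803 and 0.924 FPKM, and 18.8% of the tested protein-coding genes were lower. *Ube2b* by contrast was above 96.5% of them.

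**Figure D1:**
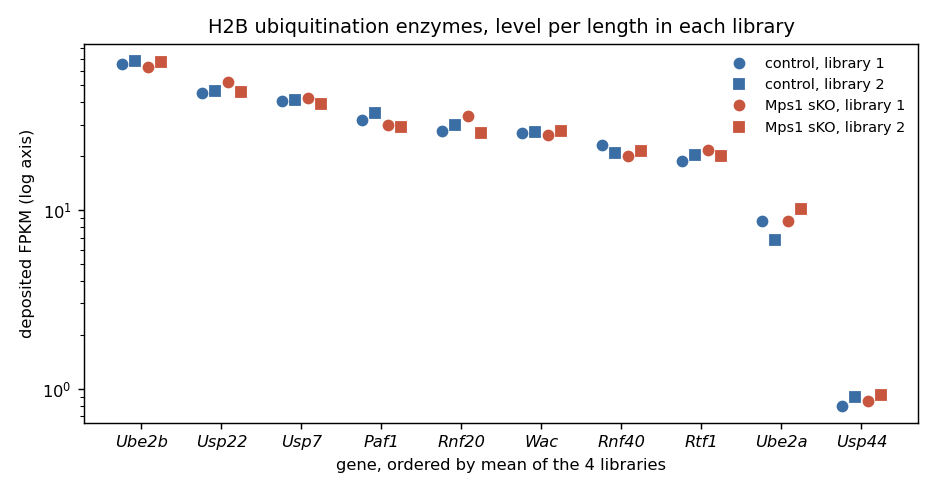
Level per length (deposited FPKM, log axis) of the 10 genes in each of the 4 libraries, with genes ordered by their mean; blue points are control and red points Mps1sKO libraries. *Ube2b* is highest at about 65.9, *Ube2a* at 8.56 and *Usp44* at 0.869 stand below the rest, and the colours overlap for all genes but *Paf1* and, by a margin of 8.636 against 8.639, *Ube2a*.

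None of the 10 genes differed between control and Mps1sKO testes by edgeR's test. Of the members 0 had an adjusted p below 0.05, where 0.0292% of all tested rows were called lower and 0.0% higher. At an unadjusted p below 0.05, 0 members were called lower, against a background of 5.37%, and 0 higher, against 3.92%. DESeq2 also called 0 at either threshold. The smallest adjusted p among the members was 0.583 from edgeR. With edgeR's p-values, 0 members and 0.827% of all tested rows passed the study's cut-offs, a fold above 1.5 with an unadjusted p below 0.01. The study's own test was DESeq2, and the DESeq2 fit here also called 0 members at these cut-offs.

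The median log2 fold change was 0.023 over the members and 0.00027 over all tested rows, with 5 members above 0 and 5 below. The size of the change, whatever its sign, had a median of 0.072 (log2), against 0.15 over all tested rows. The 2 libraries of a genotype differed for these genes by a median of 0.10 in control and 0.11 in Mps1sKO (log2), against 0.15 and 0.19 over all tested rows.

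The 95% intervals of the log2 fold changes from edgeR's main fit give the change in whole-testis RNA that could have gone unseen. A change within the targeted germ cells alone was not measured, and these intervals do not bound it. For 9 of the 10 genes the whole interval lay within a 1.5-fold change in either direction, as it did for 54.0% of all tested rows. *Ube2a* was the exception. For *Ube2b*, *Wac* and *Usp7* it lay within 1.2-fold in either direction, against 7.38% of all tested rows. Smaller changes than these intervals cannot be told from no change with 2 libraries a group. These bounds hold for the main fit only, and some other fits had larger standard errors. That of *Usp44* was 0.34 with DESeq2, against 0.19 in the main fit. With the replicate number as a block it was 0.13 for each of *Ube2b*, *Wac* and *Usp7*, against 0.088, 0.086 and 0.088.

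**Figure D2:**
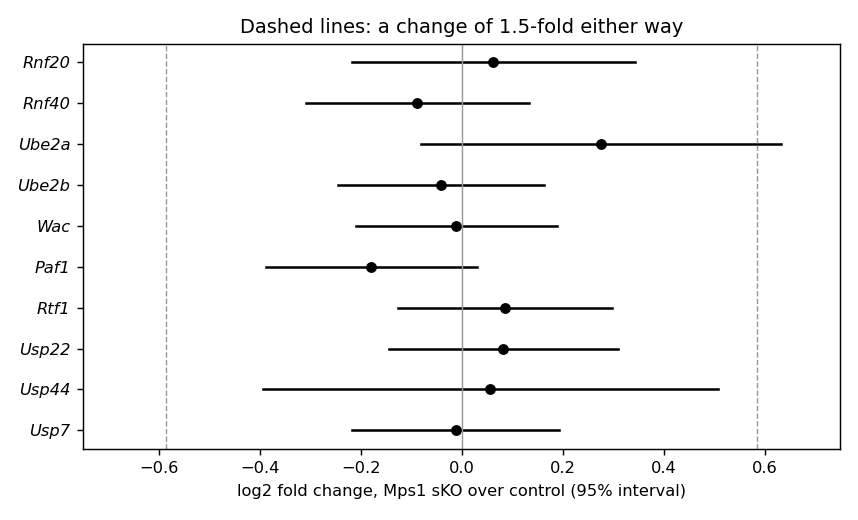
Log2 fold change of each gene (points) with its 95% interval from edgeR's fit (bars), Mps1sKO over control; the dashed lines mark a 1.5-fold change. Every interval includes 0, and that of *Ube2a* alone reaches past a dashed line, from −0.080 to 0.63.

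*Rnf20* encodes a RING subunit of the ligase, and its loss from male germ cells is known to arrest meiotic prophase. It lies on chromosome 4 from 49632006 to 49656887 (GRCm38, as are all coordinates here). Its level was 203 and 219 CPM in control and 245 and 196 CPM in Mps1sKO libraries. The Mps1sKO libraries thus held both the highest and the lowest value, and the groups overlapped. edgeR put the difference at 0.062 (log2, SE 0.12), with a 95% interval of −0.22 to 0.34 and an adjusted p of 0.899. The gap between the Mps1sKO libraries, 0.32 on the log2 scale, was the largest among the 8 members above 10 FPKM. Without Mps1sKO replicate 1 the log2 fold change of *Rnf20* turned to −0.11, and without Mps1sKO replicate 2 it was 0.22.

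*Rnf40*, on chromosome 7 from 127588767 to 127604799, encodes the other RING subunit of the same ligase. It had 130 and 117 CPM in control and 113 and 120 CPM in Mps1sKO libraries, and the upper Mps1sKO library lay between the control libraries. edgeR put the difference at −0.088 (log2, SE 0.095), with a 95% interval of −0.31 to 0.13 and an adjusted p of 0.795. Of its 5621 exonic bases, 13.6% overlap *1700120K04Rik* and *Gm44759* on the opposite strand, which had at most 4 counts in any library.

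Since both proteins form 1 complex, the ratio of their transcripts was followed within each library, which removes the scaling between libraries. The FPKM of *Rnf20* was 1.2 and 1.44 times that of *Rnf40* in control and 1.67 and 1.26 times in Mps1sKO libraries. The ratio of the second Mps1sKO library lay between those of the controls, so the groups overlapped.

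*Ube2a* and *Ube2b* encode the E2 enzymes that carry the ubiquitin and work with the ligase. *Ube2a*, on chromosome X from 36873900 to 36884222, had 19.8 and 15.6 CPM in control and 19.7 and 23.1 CPM in Mps1sKO libraries. The second control library was the lowest and the second Mps1sKO library the highest, with the remaining pair nearly equal. The groups overlapped in CPM, while in the deposited FPKM, which are scaled differently, the lower Mps1sKO library stood just above the upper control. Its log2 fold change was 0.28, the furthest from 0 among the members (standard error 0.15, 95% interval −0.080 to 0.63, adjusted p = 0.606 from edgeR), and an increase of up to 1.55-fold lies inside this interval. With each library left out in turn it lay between 0.11 and 0.45, and the unadjusted p from edgeR fell to 0.0292 without control replicate 1 and to 0.0376 without Mps1sKO replicate 1. In both cases the adjusted p stayed above 0.05.

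*Ube2b*, on chromosome 11 from 51985497 to 52000762, is the paralogue that male fertility depends on. Its values were 140 and 145 CPM in control and 134 and 144 CPM in Mps1sKO libraries. The first Mps1sKO library was the lowest and the second lay within the controls. edgeR put the difference at −0.041 (log2, SE 0.088), with a 95% interval of −0.25 to 0.16 and an adjusted p of 0.912. A loss of more than 15.7% of the transcript in whole-testis RNA thus lies outside the interval.

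The cofactors bring the ligase to transcribing polymerase. *Paf1*, on chromosome 7 from 28392951 to 28399388, encodes the subunit after which the PAF1 complex is named. It had 110 and 120 CPM in control and 103 and 101 CPM in Mps1sKO libraries. It was the only member whose groups did not overlap, 1 of 10 genes (10.0%), and the only one whose change exceeded the gap within both genotypes, as it did for 28.6% of all tested rows. By comparison, over all tested rows both Mps1sKO libraries lay below both controls for 21.1% and above them for 20.3%. Its log2 fold change of −0.18 was the lowest among the members (standard error 0.090, 95% interval −0.39 to 0.029, adjusted p = 0.583 from edgeR). The unadjusted p was 0.0826 from edgeR and 0.152 from DESeq2, so the lower level of *Paf1* did not pass either threshold.

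*Rtf1*, on chromosome 2 from 119675068 to 119735407, encodes the PAF1 complex factor that contacts the E2 enzyme and stimulates H2B ubiquitination. It had 109 and 117 CPM in control and 124 and 116 CPM in Mps1sKO libraries, with the second Mps1sKO library below the upper control. Its log2 fold change was 0.085 with an SE of 0.091 (adjusted p = 0.791, edgeR). Its point estimate thus had the opposite sign to that of *Paf1*. The difference between these genes was not tested.

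*Wac*, on chromosome 18 from 7868832 to 7929028, encodes an adaptor between the ligase and RNA polymerase II. Its levels were the most alike of all members, with 161 CPM in each control library and 156 and 164 CPM in Mps1sKO libraries, which lay on either side of the controls. edgeR put the difference at −0.011 (log2, SE 0.086), with a 95% interval of −0.21 to 0.19 and an adjusted p of 0.981. Its longest coding transcript resembles the pseudogene *Gm18943* over 23.7% of its bases, and that gene had at most 8 counts in a library. On the opposite strand *AC130718.2*, with 87 to 93 counts, overlaps 4.39% of its exonic bases.

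The deubiquitinases remove the mark. *Usp22*, on chromosome 11 from 61151785 to 61175055, encodes the enzyme of the SAGA coactivator complex. It had 222 and 228 CPM in control and 255 and 222 CPM in Mps1sKO libraries. One Mps1sKO library was above all others and the second stood level with the lower control. Its log2 fold change was 0.082 with an SE of 0.097 (adjusted p = 0.814, edgeR) and became −0.019 without Mps1sKO replicate 1.

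*Usp7*, on chromosome 16 from 8689595 to 8792308, encodes a broad deubiquitinase best known for stabilizing MDM2 and p53, and it also acts on H2B. It had the most counts of the members, 7681 to 9304 a library, or 319 and 323 CPM in control and 331 and 305 CPM in Mps1sKO libraries. The Mps1sKO libraries lay on both sides of the controls. edgeR put the difference at −0.012 (log2, SE 0.088), with a 95% interval of −0.22 to 0.19 and an adjusted p of 0.981.

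*Usp44*, on chromosome 10 from 93831555 to 93858088, encodes a deubiquitinase of H2B that also acts in the mitotic checkpoint. It was scarce, with 88 and 105 counts in control and 80 and 100 counts in Mps1sKO libraries, or 3.27, 3.64, 3.45 and 3.73 CPM. The groups interleaved. The log2 fold change of 0.057 carried the widest standard error of the members, 0.19 (95% interval −0.39 to 0.51, adjusted p = 0.949 from edgeR), so a change of up to 1.42-fold upward or 1.31-fold downward lies inside the interval.

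**Figure D3:**
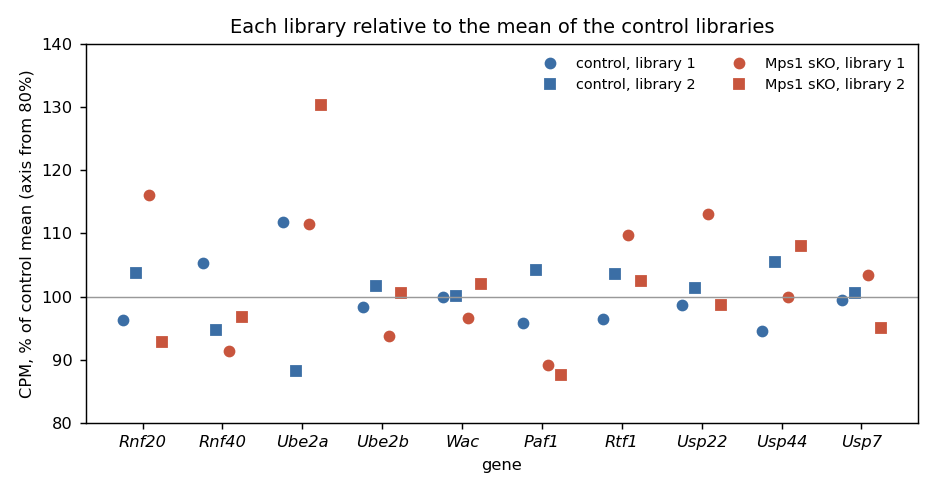
CPM of each gene in each library as a percentage of the mean of the control libraries (axis from 80% to 140%), with circles for replicate 1 and squares for replicate 2 of each genotype. Red and blue points overlap for every gene except *Paf1*, whose Mps1sKO libraries sit at 89.2% and 87.5%, and *Ube2a* reaches 130.3% in the second Mps1sKO library.

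Another 42 genes of the pathway were then described by role, from lists written by function, and all 42 were tested. At an adjusted p below 0.05 edgeR called 0 of them. At an unadjusted p below 0.05, 1 was higher and 2 were lower, so 7.14% of the 42 were called, against 9.3% of all tested rows. The median log2 fold change of the 42 was 0.017. The libraries of the genotypes did not overlap for 16 of them (38.1%), 9 lower and 7 higher in Mps1sKO, against 41.4% of all tested rows.

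Among the other ligases, *Mdm2*, which encodes a ligase of p53 that is also reported to act on H2B, had 102 and 105 CPM in control and 104 and 97.4 CPM in Mps1sKO libraries. The groups overlapped, and the log2 fold change was −0.041 (standard error 0.088, 95% interval −0.25 to 0.16, adjusted p = 0.912 from edgeR). *Rad18*, a ligase that works with UBE2A and UBE2B in DNA damage tolerance, had the smallest unadjusted p of the 42. Its level was 56.9 and 68.6 CPM in control and 48.5 and 45.6 CPM in Mps1sKO libraries, so the groups did not overlap. The log2 fold change was −0.42 (unadjusted p = 0.00740, adjusted p = 0.494 from edgeR). When no filter on low counts was used, its adjusted p from edgeR was 0.0348.

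The partners of PAF1 and RTF1 and other elongation factors had a median log2 fold change of −0.040 over 11 genes. *Ctr9*, the largest subunit of the PAF1 complex, had 144 and 157 CPM in control and 162 and 141 CPM in Mps1sKO libraries, a log2 fold change of 0.0034. None of the 11 had an unadjusted p below 0.05 from edgeR. The genes of the E1 enzymes, which load ubiquitin onto the E2, had log2 fold changes of 0.035 for *Uba1* and −0.18 for *Uba6*.

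Of the deubiquitinase genes outside the members, *Usp46* was at 81.5 and 77.3 CPM in control and at 102 and 92.5 CPM in Mps1sKO libraries. Its groups did not overlap, with a log2 fold change of 0.29 (unadjusted p = 0.0160, adjusted p = 0.497 from edgeR). *Usp3* had a log2 fold change of 0.022. The 7 genes of this list had a median of 0.028. The partners of USP22 in SAGA, *Atxn7l3* and *Eny2* among them, had a median of 0.089 over 5 genes, with 0.15 for *Atxn7l3* and 0.040 for *Eny2*, and 0 of the 5 had an unadjusted p below 0.05.

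The list of H3 methyltransferases that respond to ubiquitinated H2B, with their subunits and a chromatin remodeller, had a median log2 fold change of −0.059 over 13 genes. *Dot1l*, the H3 lysine methyltransferase of gene bodies, had 269 and 250 CPM in control and 268 and 270 CPM in Mps1sKO libraries, and the log2 fold change was 0.052. *Dpy30*, a small subunit shared by the SET1 and MLL complexes, was at 40.0 and 38.2 CPM in control and 30.7 and 33.8 CPM in Mps1sKO libraries. The groups did not overlap, with a log2 fold change of −0.28 (unadjusted p = 0.0290, adjusted p = 0.515 from edgeR).

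**Figure D4:**
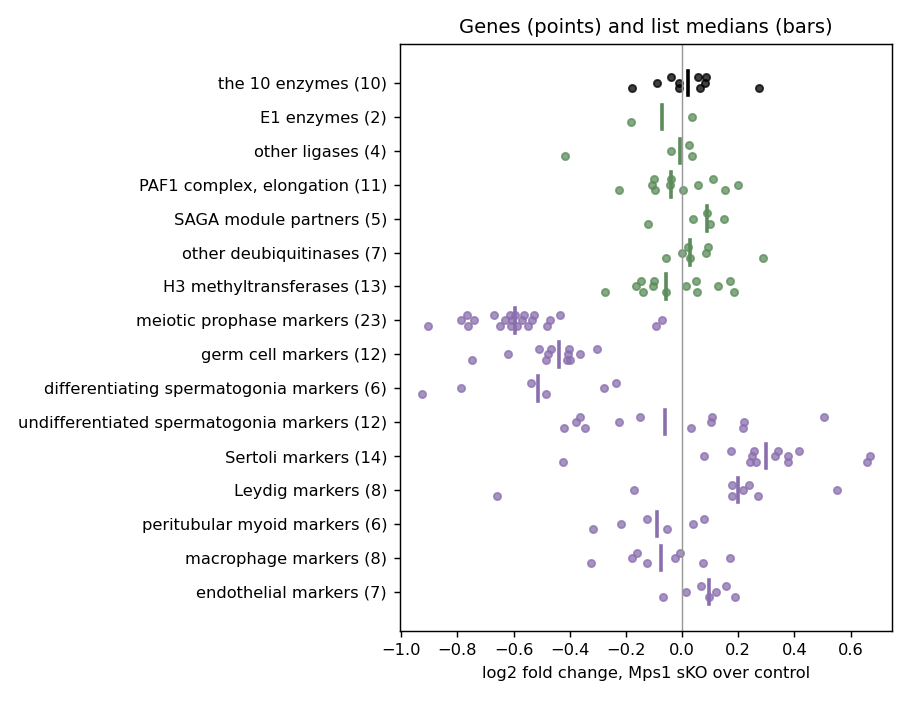
Log2 fold change (Mps1sKO over control) of each tested gene (points) and the median (bar) of the 10 enzymes in black, the 42 other pathway genes in green and the cell type markers in purple, with the number of tested genes in brackets. The enzymes lie between −0.18 and 0.28, whereas all 23 meiotic prophase markers and all 12 germ cell markers lie below 0. The row of H3 methyltransferases also holds their subunits and a chromatin remodeller.

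Marker genes of the cell types in a testis were summed in the same libraries. In bulk RNA, fewer cells of a type and less RNA per cell cannot be told apart. The 23 meiotic prophase markers, such as *Sycp3*, summed to 969 and 1258 CPM in control and to 808 and 670 CPM in Mps1sKO libraries. Their median log2 fold change was −0.60, and 19 of 23 genes were lower at an unadjusted p below 0.05 from edgeR. Over all tested rows, 5.37% were lower and 3.92% higher at that p. The marker lists were chosen with earlier results of these data known. The 12 general germ cell markers, such as *Ddx4*, summed to 1538 and 1885 against 1429 and 1081 CPM (median −0.44, 10 of 12 at that p), and the 6 markers of differentiating spermatogonia had a median of −0.51. The sums of Sertoli cell markers were higher, 7293 and 7489 against 9220 and 8814 CPM, with a median of 0.30 over 14 tested genes. Of these, 13 were above 0, 6 of them at an unadjusted p below 0.05, and 1 was below, at −0.42. *Rhox5*, also on that list, had at most 1 count in a library.

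The 12 markers of undifferentiated spermatogonia went both ways, from −0.42 to 0.50 with a median of −0.060, and 3 were lower and 0 higher at an unadjusted p below 0.05. Their sums were 427 and 377 CPM in control and 360 and 341 CPM in Mps1sKO libraries. The medians were 0.20 for 8 Leydig cell markers, −0.089 for 6 peritubular myoid markers, −0.076 for 8 macrophage markers and 0.096 for 7 endothelial markers. No gene of any marker list had an adjusted p below 0.05 from edgeR. The summed level of the 10 enzymes was 1418 and 1450 CPM in control and 1484 and 1394 CPM in Mps1sKO libraries, so the Mps1sKO libraries lay on both sides of the controls while the germ cell sums of the same libraries lay below.

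The summed meiotic prophase markers fell from control replicate 2 over control replicate 1 and Mps1sKO replicate 1 to Mps1sKO replicate 2. Among the members, 1 of 10 (10.0%), *Paf1*, had its libraries in this order, and among the pathway genes 4 of 42 (9.52%), *Supt16*, *Rbbp5*, *Wdr5* and *Rad18*, against 8.26% of all tested rows, so these shares were near the background. Only the falling order was counted, not the rising one, and the part of germ cell content in these values was not tested.

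**Figure D5:**
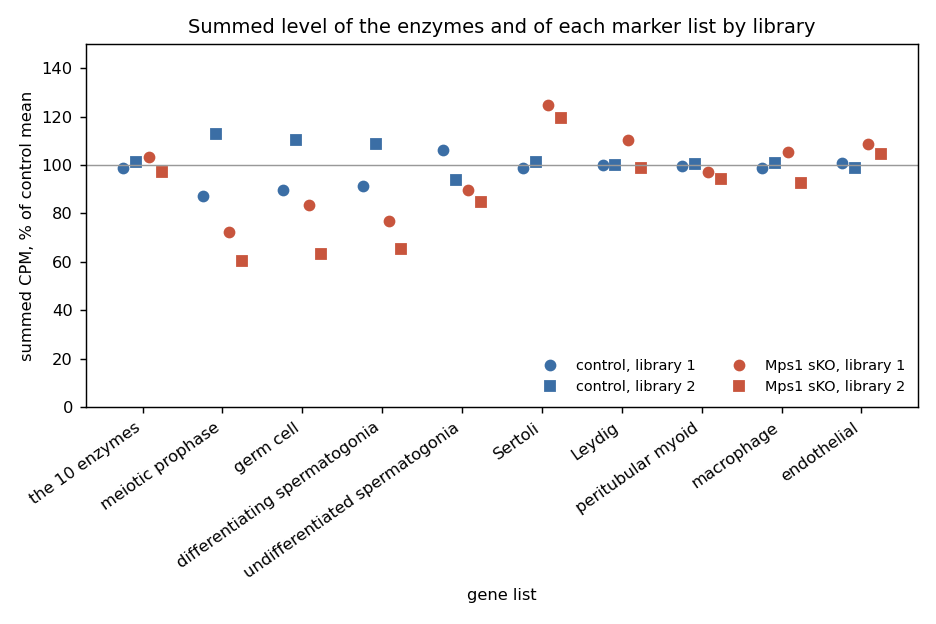
Summed CPM of the 10 enzymes and of each marker list in the 4 libraries, as a percentage of the control mean. The enzymes stay between 97.2% and 103.5%, the meiotic prophase markers stand at 72.6% and 60.2% and the Sertoli markers at 125% and 119% in the Mps1sKO libraries.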

How the data were processed

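RNA of whole testes was sequenced in 4 libraries, 2 for each genotype in the labels, by paired-end reads from NEBNext Ultra libraries. The authors deposited raw counts on each gene and FPKM values per kilobase of gene length. The submitters' processing notes name HISAT2 2.0.5, featureCounts, DESeq2 1.16.1 and mm10, and strandedness is not given in the sources used here. Of the rows, 55450 were found in GENCODE M21 (GRCm38), all at identical coordinates.

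Counts were tested on genotype with edgeR 4.0.16 in R 4.3.3 (filterByExpr, TMM, quasi-likelihood F test). FPKM values were used to compare levels between genes and for ratios within libraries. Some of these values were also set side by side between genotypes, without a test. The fits with edgeR, DESeq2 and limma-voom, with and without the replicate number as a block, were first tested on simulated data. The other fits were not. Alternatives were DESeq2 1.42.0, limma-voom (limma 3.58.1), other scalings and filters, a robust fit, annotated genes only, the replicate number as a block, and each library left out. Sequences and overlaps were read from GENCODE M21 with Python 3.11.15 and BLAST 2.17.0.

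The members, the pathway and marker lists and the tests were chosen with earlier results of these data known. All 10 members are named. Of the pathway lists, *Mdm2*, *Usp3*, *Atxn7l3*, *Eny2*, *Ctr9*, *Dot1l* and each gene with an unadjusted p below 0.05 are named. *Uba1* and *Uba6* are named as the only 2 of their list after their values were seen. *Supt16*, *Rbbp5* and *Wdr5* are named only for the order of their libraries, also after their values were seen. *Stra8* is on 2 marker lists. A floor of 3 counts, which covers counting error only, is 0.104 to 0.129 CPM.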

Additional observations from a re-analysis of the deposited data

How the results depend on the processing

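Neither the scaling, the filter on low counts, the tool, the robust fit nor the restriction to annotated genes changed the sign of any of the 10 genes' log2 fold changes, and 0 members had an adjusted p below 0.05 in any of these fits. With 1 library left out, which assumes that the lone library varies like the other genotype, the log2 fold changes ranged from −0.11 to 0.22 for *Rnf20*, −0.092 to 0.0088 for *Ube2b*, −0.050 to 0.028 for *Wac*, −0.019 to 0.18 for *Usp22*, −0.020 to 0.14 for *Usp44* and −0.073 to 0.048 for *Usp7*, so the sign of these 6 depends on single libraries, and 0 to 1 members were higher at an unadjusted p below 0.05. The signs of *Rnf40* (−0.16 to −0.010), *Ube2a* (0.11 to 0.45), *Paf1* (−0.24 to −0.12) and *Rtf1* (0.033 to 0.14) held.

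The log2 fold change of *Ttk* was −1.27 with at least 10 counts in every library, −1.26 with limma-voom, −1.26 with annotated genes only and −1.26 with the replicate block, and in these 4 fits its adjusted p was no longer below 0.05. Without a filter, 1 pathway gene had an adjusted p below 0.05, and 1 was lower at an unadjusted p below 0.05 with DESeq2. Rows with an adjusted p below 0.05 numbered 390 without a filter (139 higher), 37 with DESeq2 (7 higher) and 3 each with limma-voom, with annotated genes only and with the minimum of 10 counts, against 6 (0 higher), and 199, 68, 17 and 35 without control replicate 1, control replicate 2, Mps1sKO replicate 1 and Mps1sKO replicate 2, of which 73, 40, 6 and 13 were higher. With the library size alone, the median was −0.080 for the methyltransferase list and 0.074 for endothelial markers.

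With a library left out, 0 to 2 pathway genes were higher and 0 to 3 lower at an unadjusted p below 0.05. The medians ranged from −0.075 to 0.018 for the PAF1 and elongation list, 0.020 to 0.098 for the SAGA list, −0.036 to 0.13 for the other deubiquitinases, −0.056 to −0.036 for the methyltransferases, −0.77 to −0.37 for meiotic prophase, −0.65 to −0.27 for germ cell, −0.13 to −0.017 for undifferentiated spermatogonia, 0.094 to 0.23 for Leydig, −0.14 to −0.088 for peritubular myoid, −0.13 to 0.077 for macrophage and 0.060 to 0.13 for endothelial markers.

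The labels do not say whether equally numbered libraries were paired. Their deviations had a correlation of −0.19, which cannot settle this with 2 libraries a genotype. With the replicate block, 0 members, 0 higher pathway genes and 1 lower pathway gene had an unadjusted p below 0.05, and 2 rows an adjusted p below 0.05. With the numbers crossed, an alternative chosen after seeing the data, 1 member was higher and 1 lower at an unadjusted p below 0.05, 0 had an adjusted p below 0.05, and 550 rows did.

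With 2 libraries a group, *Ube2a* and *Usp44*, the members with the fewest counts, had the widest intervals, and changes inside an interval were not detectable. For *Ube2a* the control libraries also differed by 0.34 (log2), the largest control gap of the members, and depth and library spread were not separated.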
